A study of Mus musculus with 10 samples.

Results

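The genes described here build and maintain the axoneme, the microtubule core of the sperm flagellum. They were chosen by name among the known mRNAs of the deposited tables: every gene with an NM_ transcript whose symbol starts with Dnah, Dnai, Dnal, Dnaaf, Cfap, Spag, Rsph, Drc, Tekt or Ift followed by a digit. The rule found 79 genes with 92 transcripts, out of 16063 known mRNA genes and 69553 genes of all classes. RNA was sequenced from mature sperm and whole testes of C57BL/6 mice, aged 3 to 5 months per the labels. Control mice had received saline, and cadmium mice a single intraperitoneal dose of 3 mg CdCl2 per kg, with 50 mice in either treatment group per the labels and all animals killed at day 35. The study's methods give another number and a younger age range for the mice behind the control samples. There were 4 control sperm, 2 cadmium sperm, 2 control testes and 2 cadmium testes samples. Control sperm samples were pools of many mice, obtained by swim-out from the vas deferens and cauda and washed in a buffer that lyses somatic cells. The first pool of control sperm was left out of the tests, following the study's methods, and is shown beside the others.

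In the axoneme, dynein arms on the outer doublet microtubules drive sliding, radial spokes and the central pair regulate it, and tektins and other inner proteins stabilise the doublets. Dynein arms are preassembled in the cytoplasm by assembly factors (the Dnaaf proteins) before they enter the flagellum. Intraflagellar transport (IFT) moves building material along growing axonemes with the complexes IFT-A and IFT-B. Flagella are built in round and elongating spermatids, and mature sperm are largely silent in transcription. Not every gene that the name rule caught is axonemal: Spag5, Spag9 and Spag11b act elsewhere, and Spag4 lies in the nuclear envelope.

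The summed expected counts of a library ranged from 366455 to 1058017 in control sperm, from 1155491 to 1254477 in cadmium sperm and from 2606086 to 2866856 in testes. Known mRNAs took 9.15 to 13.6% of them. Counts of the members were therefore few in sperm, 54 to 362 in a control pool and 503 to 517 in a cadmium sample, against 1208 to 1464 in testes. Of the 79 genes, 70 had under 10 counts in each of control pools 2 to 4. The spermatid and sperm markers Prm1, Prm2, Tnp1, Tnp2, Odf1, Smcp and Akap4 summed to 234.3 to 464.6 FPKM (a count scaled by transcript length and library size) in control pools 2 to 4, and to 467.3 to 572.1 in testes, with Odf1 at 0 in all sperm samples and in both cadmium testes samples. Spermatogonium and spermatocyte markers were at 0 in every control sperm pool, reached 3.18 FPKM in 1 cadmium sperm sample and were 3.0 to 7.18 in testes. Leydig cell markers reached 27.49 FPKM in control sperm pool 3 (2 of the 6 genes had counts in pools 2 to 4) and Sertoli cell markers 14.82 in pool 1. Epididymal markers summed to at most 3.08 FPKM in sperm, leukocyte markers to at most 4.0 and multiciliated cell markers to at most 2.31. Their part in the results below was not tested. Labels name all of these samples as separate. By the study's methods the control testes came from the same mice as the control sperm pools, and the tests treated the groups as independent. The p-values measure the spread between samples only. Intervals and floors cover counting error only. In bulk RNA, fewer cells of a type and less RNA per cell cannot be told apart.

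Dnaaf2, Cfap46, Ift140 and Tekt1 are shown by the 120 bases before a RefSeq transcript start (GRCm38.p6), because their promoters hold the motif described next and they span the range of the results: the first pair was among the most abundant members in sperm, and the second pair was at 0 in every control sperm pool. Capitals mark GTTGCC or its reverse complement, the core letters of the X-box that RFX factors bind at many cilia genes.

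Dnaaf2, chr12:69198430-69198549, minus strand: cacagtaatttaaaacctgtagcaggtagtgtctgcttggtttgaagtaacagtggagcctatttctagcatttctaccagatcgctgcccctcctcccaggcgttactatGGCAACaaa
Cfap46, chr7:139683816-139683935, minus strand: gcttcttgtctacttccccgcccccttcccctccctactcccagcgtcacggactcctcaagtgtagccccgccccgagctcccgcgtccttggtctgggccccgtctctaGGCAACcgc
Ift140, chr17:25015966-25016085, plus strand: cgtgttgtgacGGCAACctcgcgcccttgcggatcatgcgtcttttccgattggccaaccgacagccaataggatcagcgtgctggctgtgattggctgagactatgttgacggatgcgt
Tekt1, chr11:72361883-72362002, minus strand: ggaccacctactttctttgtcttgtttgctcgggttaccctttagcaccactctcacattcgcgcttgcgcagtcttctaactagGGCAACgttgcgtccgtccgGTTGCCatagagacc

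For Cfap46, Dnaaf2 and Tekt1 the window lies inside the annotated span of the gene, whose longest model starts further upstream. In the 250 bases before the start, these letters were in 21 of the 76 promoters that matched 68 of the members, 27.6%, and in 10.4% of all 32851 promoters. The full X-box palindrome was searched in a fixed form only, with set letters and a set gap between its sides. That form was in 0 member promoters and in 0.374% of all. Looser forms were not searched, so these values do not show that palindromic X-boxes are absent from member promoters. The Ift57 promoter holds both sides with a shorter gap, and the Dnaaf2 window above comes close to the fixed form. A cAMP response element, TGACGTCA, was in 4 member promoters (5.26%, those of Dnah6, Ift57, Spag4 and Spag6) and in 1.55% of all. Both strands were searched. The other Tekt1 promoter in the table, and those of Cfap36 and Cfap206, hold none of these letters.

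Nearly all members were found in testes, while in sperm they were found about as often as other known mRNAs. In control testes 77 of the 79 genes, 97.5%, had a count in at least 1 sample, against 86.6% of known mRNA genes. In control sperm pools 2 to 4 there were 38, 48.1%, against 45.8% of known mRNA genes. In cadmium mice 75 were found in testes, 94.9% against 86.1%, and 48 in sperm, 60.8% against 60.1%. The 4 control pools listed 11, 36, 5 and 14 members, in the order of their numbers, the cadmium sperm samples 41 and 39, and the testes samples 68 to 72. When every library was thinned to 366456 counts, the means were 10.85, 23.35, 5 and 12 members in the control pools, 28.35 and 24.25 in cadmium sperm and 38.9 to 46.15 in testes. At this equal total each sperm sample listed fewer members than any testes sample, and known mRNA genes behaved alike, with 1546 to 5470 listed in sperm and 6122 to 6532 in testes. The total was matched, not the count of known mRNAs. Found in all 10 samples were 3 genes, Cfap46, Dnaaf1 and Dnaaf2. At the other end, 28 members had no count in any of the 6 sperm samples, and 12 of these were found in every testes sample: Cfap206, Cfap36, Cfap53, Cfap58, Cfap97, Drc1, Ift27, Ift80, Ift88, Spag5, Spag6 and Tekt3. At such depth a count of 0 does not show that a transcript is absent.

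**Figure D1:**
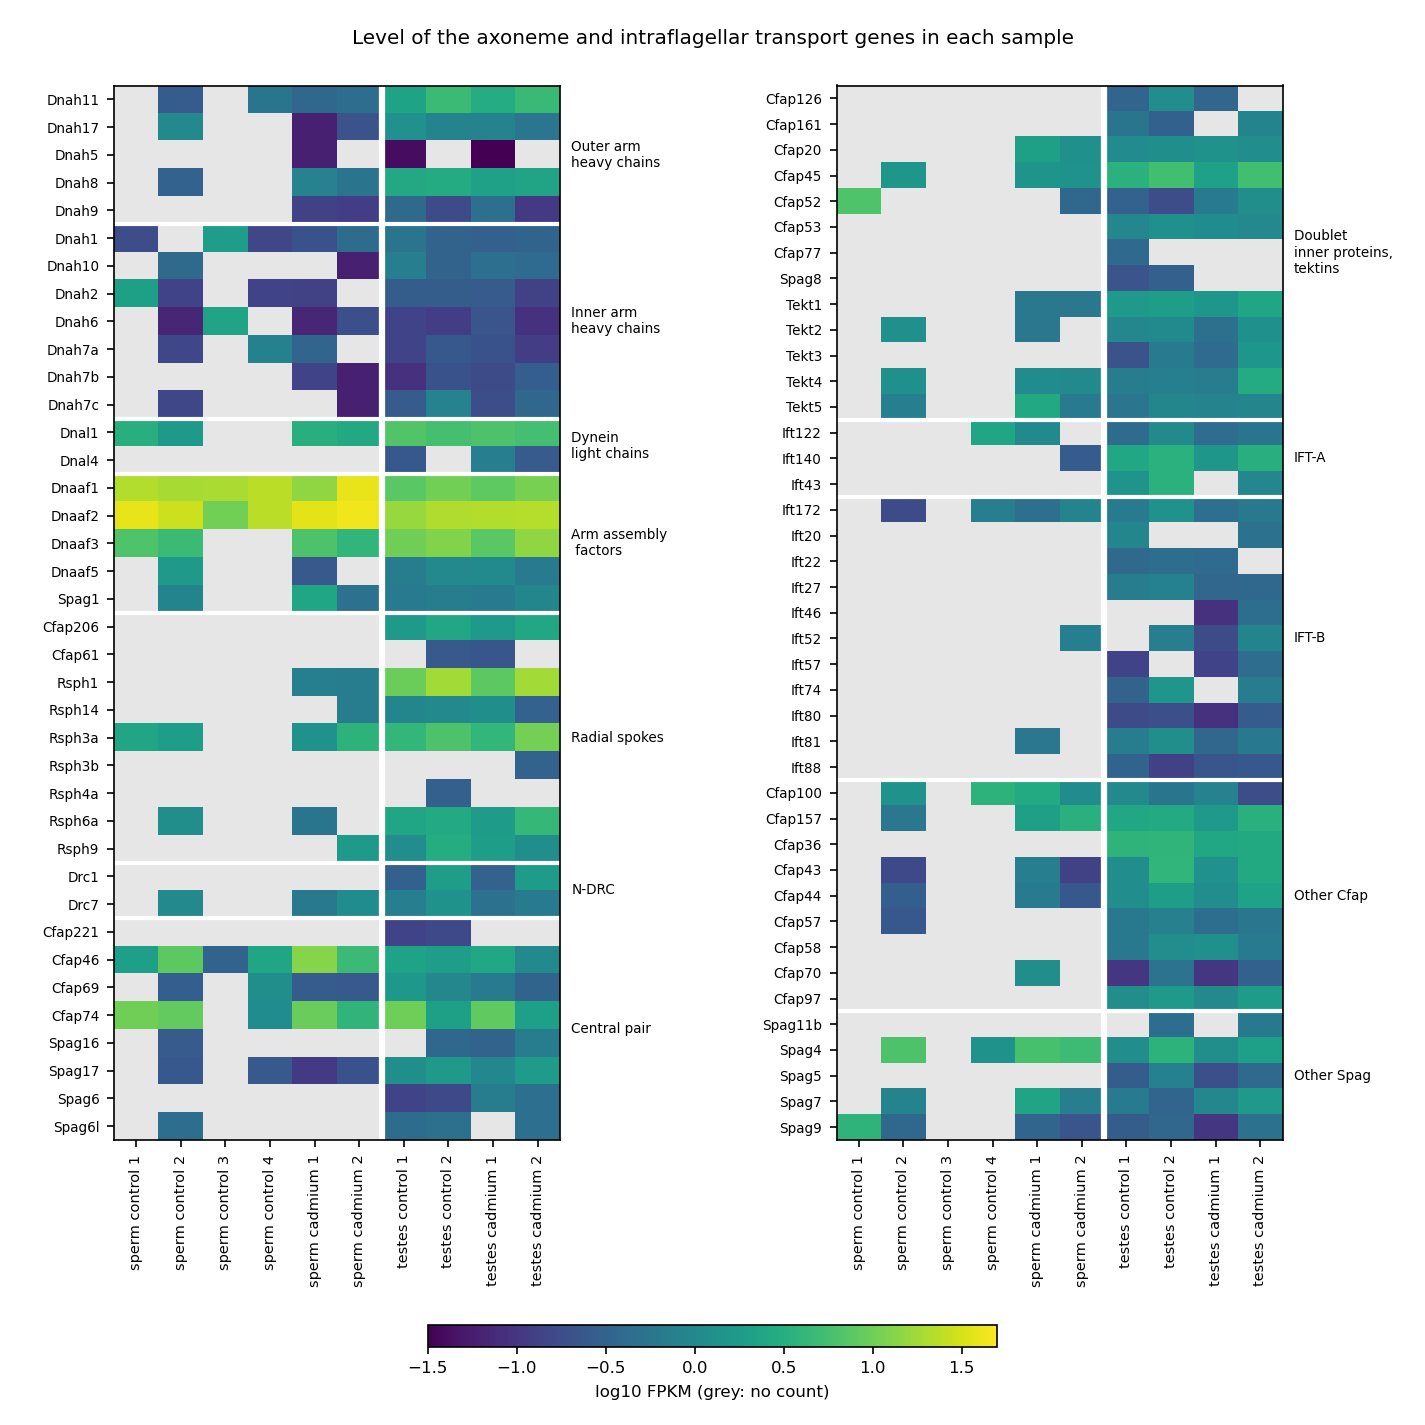
Level of each of the 79 genes (rows, grouped by structural role) in each of the 10 samples (columns), as log10 FPKM, with grey where a gene had no count. Dnaaf1 and Dnaaf2 are bright in every sample, while most rows are grey in the control sperm pools and filled in testes.

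Dynein arm assembly factors held the largest share of the members' counts in sperm. They took 54.0% in control pools 2 to 4 and 54.0% in cadmium sperm, against 23.0% in control testes and 26.9% in cadmium testes. The share was 43.3 to 66.1% in single sperm samples, above the 22.6 to 27.2% of the testes samples. Their summed FPKM overlapped in control mice, at 65.6, 54.9, 30.2 and 46.6 in pools 1 to 4 and 34.9 and 45.5 in testes. In cadmium mice it was 60.9 and 86.9 in sperm and 38.4 and 49.55 in testes. The larger share in control sperm is therefore not by itself a higher level of these factors. Dnaaf3, another of these factors, lay lower in sperm than in testes. It was at 6.57, 4.81, 0 and 0 FPKM in control pools 1 to 4 and at 10.05 and 12.51 in control testes. In cadmium mice it was at 6.4 and 4.06 in sperm and at 7.52 and 14.61 in testes, and neither difference was called. Outer arm heavy chains, the motor subunits themselves, took 5.51% and 4.71% in the sperm groups and 22.1% and 21.2% in the testes groups. The central pair apparatus took 21.1% and 21.4% in the pooled sperm groups and 9.96% and 9.06% in testes, but its samples overlapped: it took 13.7, 26.4, 1.85 and 13.0% in control pools 1 to 4, 30.5 and 12.6% in cadmium sperm and 6.09 to 13.2% in testes. Without control pool 2 its share in pools 3 and 4 was 9.36%. IFT-B took 0.570% and 1.27% in sperm and 2.73% and 2.07% in testes. These shares are counts, so long genes weigh more in them, and they were compared without a test.

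**Figure D2:**
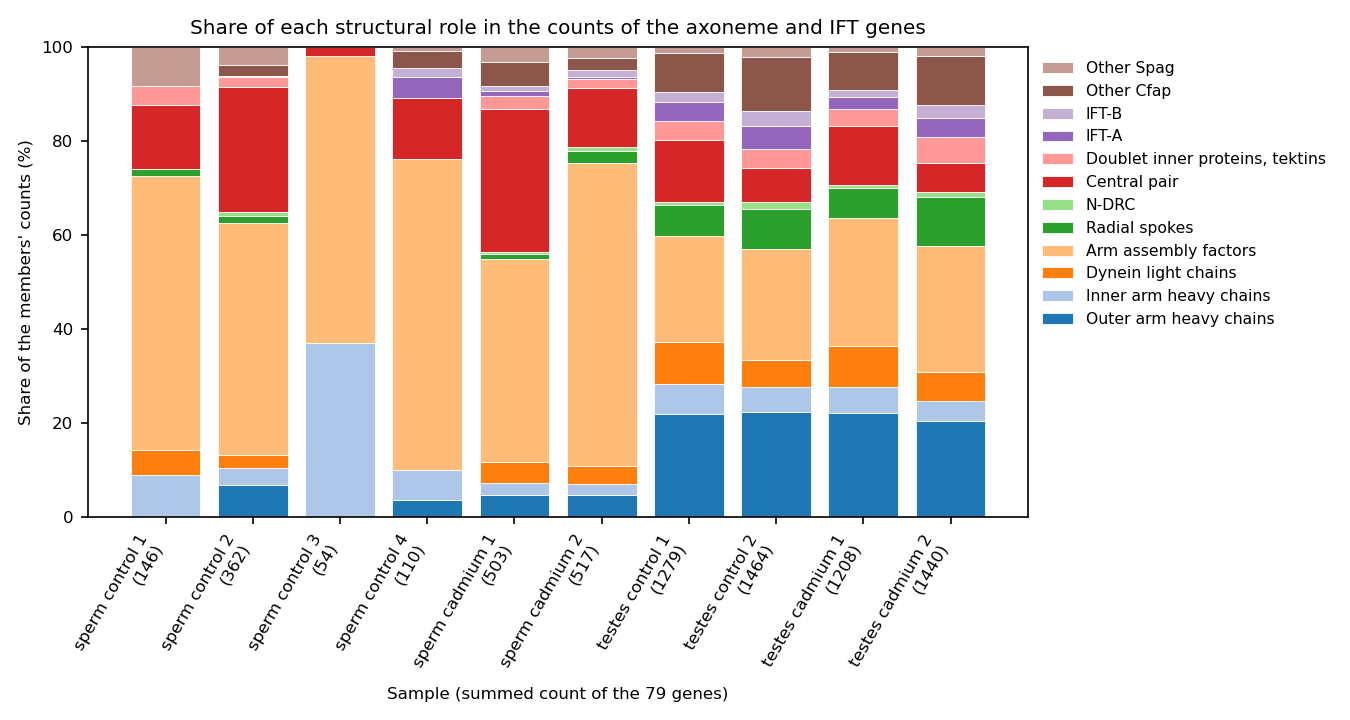
Share (%) of each structural role in the summed counts of the 79 genes, 1 bar per sample, with that sum in brackets. The assembly factors fill more of every sperm bar than of any testes bar, and control sperm pool 3 rests on 54 counts.

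Dnaaf1, Dnaaf2 and Cfap46 together made up 58.9 to 75.2% of the members' counts in the sperm samples and 20.5 to 27.1% in the testes samples. Dnaaf1, a leucine-rich repeat protein needed to preassemble dynein arms, was at 21.1, 18.9, 19.6 and 23.2 FPKM in control sperm pools 1 to 4 and at 7.51 and 10.3 in control testes. It was at 14.8 and 39.0 in cadmium sperm and at 8.08 and 11.1 in cadmium testes. Every sperm sample was above every testes sample. Dnaaf2, a co-chaperone of the same process, was at 37.9, 28.6, 10.6 and 23.4 FPKM in the control pools, 15.99 and 20.9 in control testes, 37.0 and 43.3 in cadmium sperm and 21.1 and 22.2 in cadmium testes. Its groups overlapped in control mice and did not in cadmium mice. Cfap46, a central pair protein, was at 2.01, 7.93, 0.33 and 2.39 FPKM in the control pools, 2.25 and 1.96 in control testes, 13.1 and 4.84 in cadmium sperm and 2.61 and 1.03 in cadmium testes. All 3 overlap other RefSeq genes, and whether counting used strand is not given in the sources used here, so part of their reads may belong to the partner: Dnaaf1 overlaps Taf1c over 481 bases, Dnaaf2 overlaps the lncRNA 9330151L19Rik on the other strand over 2658 bases, and Cfap46 overlaps the lncRNA Gm33031 on the other strand over 34695 bases. Taf1c was at 0 to 14.0 FPKM in sperm and at 38.5 to 42.7 in testes. The part of any of these partners in the counts was not tested.

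The comparison of control sperm with control testes asked which members differ between the mature cell and the tissue that makes it. None was called higher and 9 were called lower in sperm: the outer arm heavy chains Dnah8 and Dnah11, the radial spoke genes Rsph1 and Cfap206, the IFT-A gene Ift140, the tektin gene Tekt1, and Cfap36, Cfap43 and Cfap97. A gene was called at an adjusted p under 0.05 and more than 2-fold change by the quasi-likelihood test of edgeR, Benjamini-Hochberg adjusted over all genes tested. Of the 79 members, 32 passed the filter of 1 FPKM in 2 samples, 15 of them through the testes samples alone, so these had to be lower in sperm, and all 9 called genes were among these 15. Of the known mRNA genes that passed through testes alone, 57.9% were called lower, so the 9 of 15 members are close to the background. Passing through testes alone was more frequent among the members tested, 46.9% against 26.9% of known mRNA genes, and was not tested. Among all genes tested, 4.19% were called higher and 17.8% lower, and among known mRNAs 4.4% and 20.3%. The median log2 fold change, -2.94 over the 32 members and -1.22 over known mRNAs, follows in part from this split. The calls were not stable to the loss of a library, among the members and among all genes alike. Without control sperm pool 2, 3 or 4 there were 2, 6 or 0 members called. Of all genes tested 4.93%, 18% or 4.23% were called then, against 22% with these pools kept. Leaving out either control testes sample leaves 1 in its group, so no count is given. Without a filter on low values 1 member was called, where 2.26% of all genes were called.

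Ift140, a subunit of IFT-A, was at 0 FPKM in all 4 control sperm pools and at 2.65 and 3.52 in control testes. Pooled, it had 0 counts in sperm pools 2 to 4 and 97 in testes, at least 11.4-fold lower by a floor of 3 counts over the sperm group (edgeR adjusted p = 0.0208). Rsph1, a radial spoke head protein, was at 0 in all control sperm pools and at 9.66 and 17.9 FPKM in control testes. That was at least 9.77-fold lower in sperm (edgeR adjusted p = 0.0277). The same held for Cfap97, at least 4.19-fold lower, Cfap36, at least 3.65-fold, Cfap206, a radial spoke protein, at least 2.24-fold, and Tekt1, which forms filaments in the doublets, at least 1.65-fold, each with an edgeR adjusted p of 0.0465. Their fitted log2 fold changes, -5.04 to -6.42, depend on the prior count of the model and are not bounds.

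Dnah8, a sperm outer arm heavy chain, was at 0, 0.32, 0 and 0 FPKM in the control pools and at 2.72 and 2.94 in control testes. Its log2 fold change was -4.36 with an SE of 1.32 (edgeR adjusted p = 0.0210). Dnah11, another gene of the outer arm heavy chains, was at 0, 0.27, 0 and 0.56 FPKM in the pools and at 2.25 and 4.79 in testes. Its log2 fold change was -3.84 with an SE of 1.19 (edgeR adjusted p = 0.0234). Cfap43, a protein that links inner arm dynein to the doublet, had 1 count in the 3 sperm pools tested and 82 in testes, a ratio of testes to sperm of 29.0 with a 95% counting interval of 5.05 to 1160 (edgeR adjusted p = 0.0465). All 3 genes were lower in every sperm pool than in either testes sample. For pools 2 to 4 this was set in advance, because these genes passed the filter through testes alone. The light chain gene Dnal1 had a log2 fold change of -3.24 and an edgeR adjusted p of 0.0558, and Dnaaf1 one of 0.94 with an SE of 0.93 (adjusted p = 0.491), although its groups did not overlap. Over all members, every testes sample lay above every one of the 3 sperm pools for 44 of 79 genes, 55.7%, against 36.6% of known mRNA genes. The reverse held for 1, Dnaaf1, against 2.93% of known mRNA genes. Among the 44 were genes with 0 counts in these pools and few in testes, such as Cfap221, Ift22 and Spag8 (2 counts each). At equal depth these testes counts lay below the floor of 3 counts over the sperm group. For such genes the order does not show a difference in level. Members were also found in control testes more often than known mRNA genes, 97.5% against 86.6%. The part of depth and detection in the 55.7% was not tested.

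**Figure D3:**
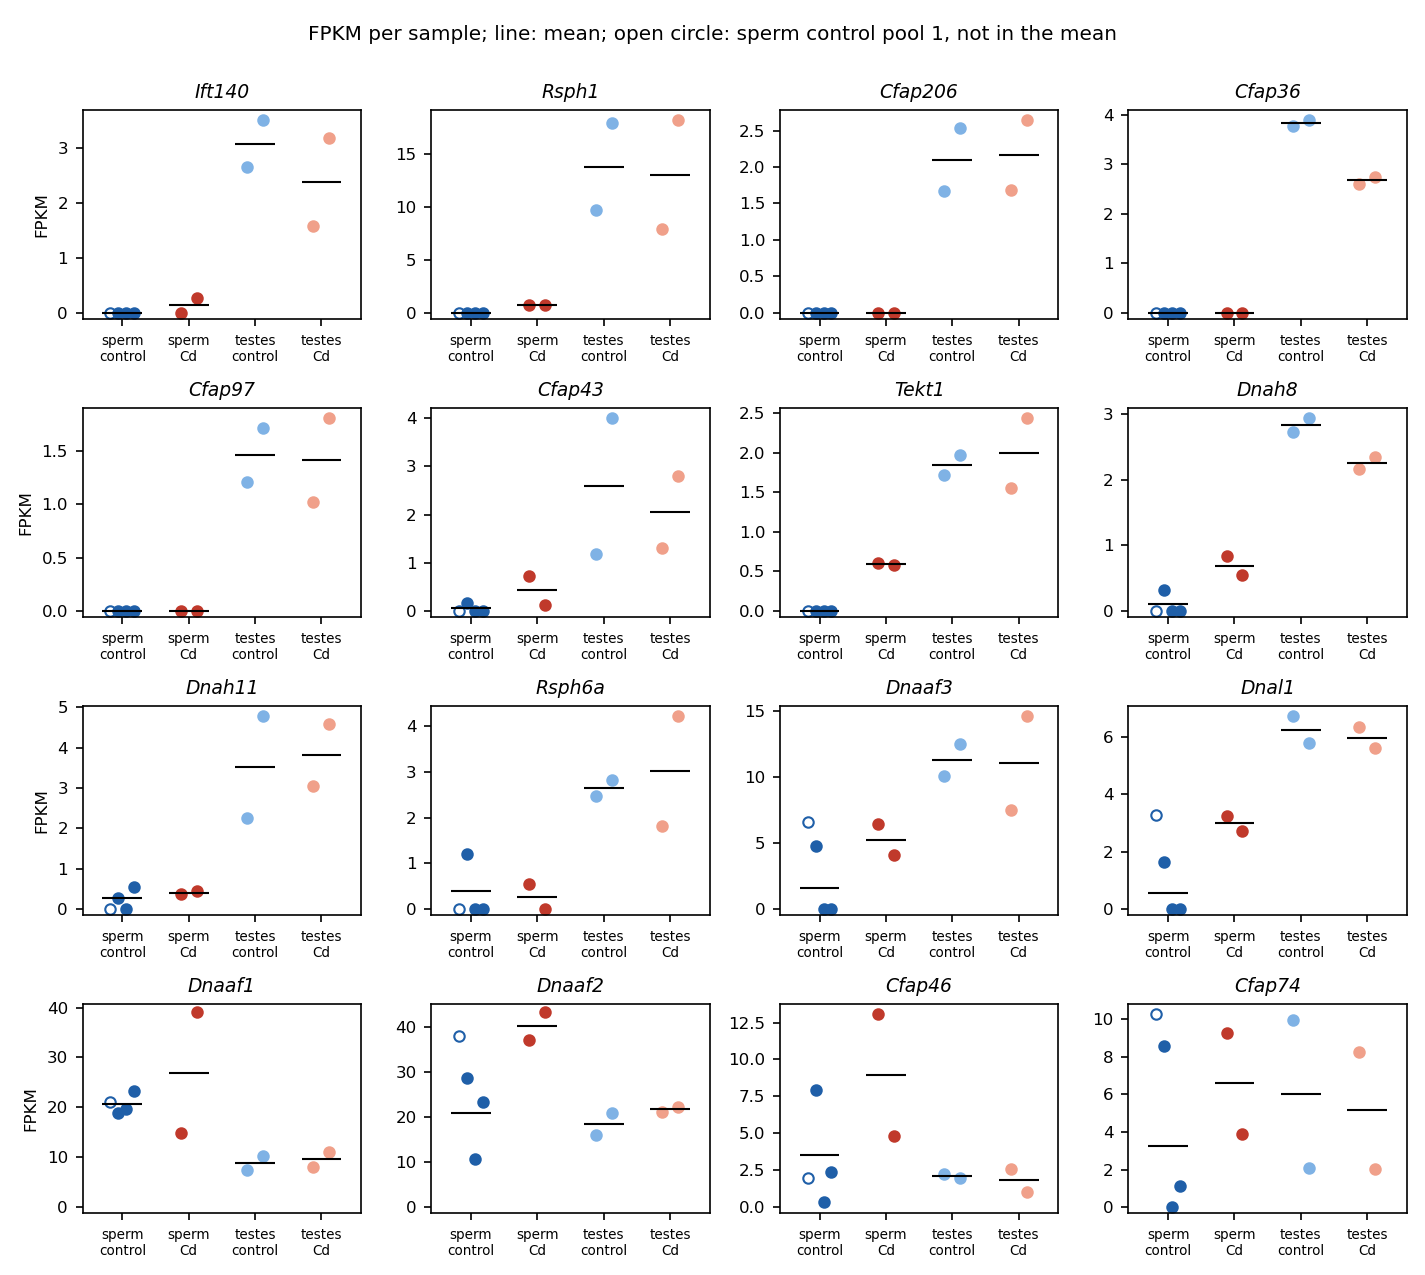
FPKM of 16 genes in each sample, by group, with a line at the mean (open circle: control sperm pool 1, which is not in the mean). Ift140, Rsph1, Cfap206, Cfap36, Cfap97 and Tekt1 are at 0 in every control sperm pool, and Dnaaf1 is higher in all sperm samples than in all testes samples.

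The same comparison in cadmium mice used other animals and shares no sample with the one above. Called higher in sperm were 2 members, Cfap46 and Dnaaf1, and 9 were called lower. Of the 79 members 27 passed the filter, 12 of them through testes alone and 1 through sperm alone. All 9 called lower were among those 12, 75.0%, against 52.8% of the known mRNA genes that passed in this way. Among all genes tested 16.3% were called higher and 15.4% lower, and among known mRNAs 20.8% and 18.9%. Cfap46 had a log2 fold change of 2.55 with an SE of 0.57 (edgeR adjusted p = 7.8e-05) and Dnaaf1 one of 1.76 with an SE of 0.55 (edgeR adjusted p = 0.00689). Dnaaf2 had one of 1.13 with an SE of 0.54, which did not pass (edgeR adjusted p = 0.0926). The Dnaaf1 call rested on single libraries: without cadmium sperm sample 2 its log2 fold change was 0.75 (edgeR adjusted p = 0.396) and without cadmium testes sample 1 it was 1.19 (edgeR adjusted p = 0.390). That of Cfap46 was 2.94 without cadmium testes sample 1 (edgeR adjusted p = 0.0768), and limma called neither gene. Leaving out any cadmium sample leaves 1 in its group, and fewer members and fewer of all genes were called each time.

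The 8 genes called lower in both treatment arms, 88.9% of either list, were Cfap206, Cfap36, Cfap43, Cfap97, Dnah11, Dnah8, Ift140 and Rsph1. They were under 1 FPKM in every sperm sample and so entered both comparisons through testes alone, and their overlap is a description. Rsph1 was at 0.77 and 0.71 FPKM in cadmium sperm and at 7.86 and 18.2 in cadmium testes, with 2 counts against 80, a ratio of 17.4 with a counting interval of 4.65 to 146 (edgeR adjusted p = 0.000818). Cfap97, Cfap36 and Cfap206 were again at 0 in sperm, at least 5.06-fold, 3.18-fold and 2.89-fold lower than in testes. Dnah11 was at 0.37 and 0.45 FPKM in cadmium sperm and at 3.04 and 4.58 in cadmium testes, a log2 fold change of -3.01 with an SE of 0.64 (edgeR adjusted p = 3.33e-05). Tekt1 was called in control mice alone, and was at 0.61 and 0.58 FPKM in cadmium sperm against 1.55 and 2.44 in testes (edgeR adjusted p = 0.401). Rsph6a, a paralogue of a spoke head protein, was called in cadmium mice alone (edgeR adjusted p = 0.0237). Whether either gene differs between the arms is the interaction given below. Of 24 members tested in both arms 21 had the same sign, and Cfap157, Cfap20 and Cfap74 had opposite signs. The 8 shared genes are among the 21, and the filter set their signs. This count is a description too, with no background share beside it. In cadmium mice 37 members, 46.8%, lay higher in every testes sample than in every sperm sample, against 31.6% of known mRNA genes, and 5 lay lower (Cfap100, Cfap46, Dnaaf1, Dnaaf2 and Spag4), against 15.3%. The limit given for control mice holds here too: Ift27, with 0 counts in sperm and 2 in testes, is among the 37.

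**Figure D4:**
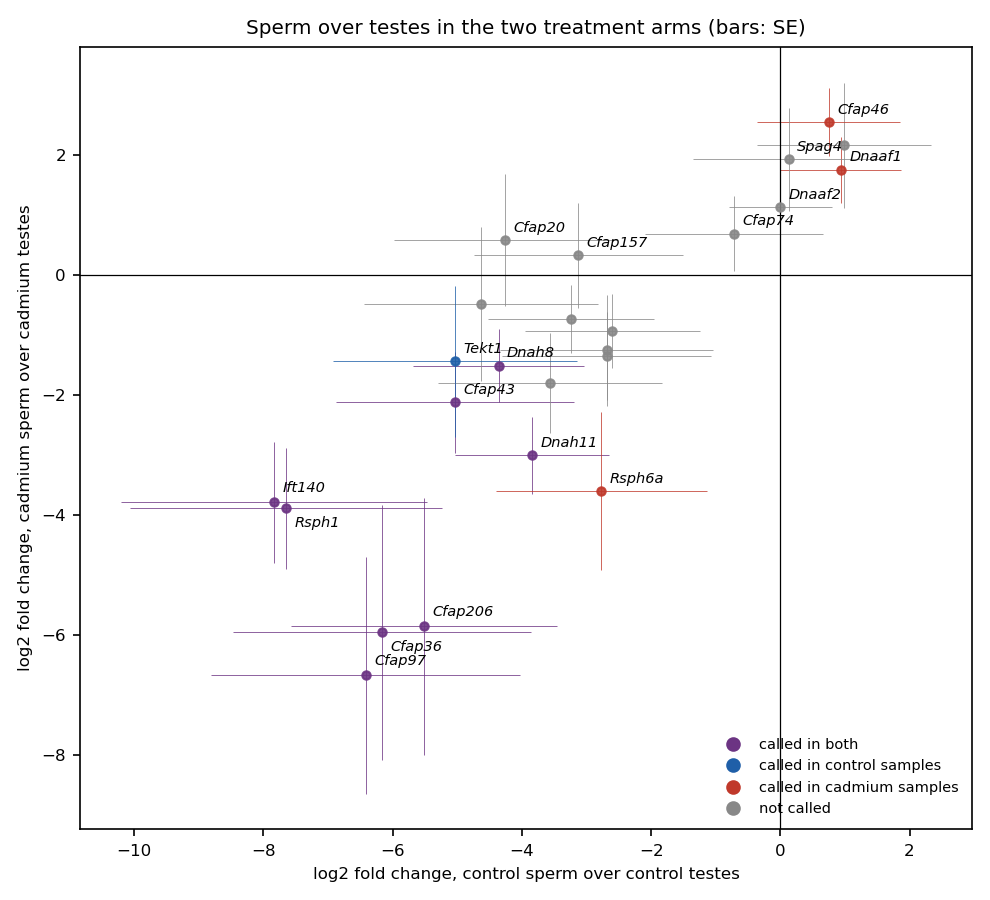
log2 fold change of sperm over testes in control mice (x axis) and in cadmium mice (y axis) for the 24 members tested in both, with SE bars. The 8 genes called lower in both lie at the lower left, and Cfap46 and Dnaaf1 at the upper right.

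Cadmium was compared with control within each tissue. In testes 31 members were tested and none was called by edgeR, with 0 at an unadjusted p under 0.05, where 0.015% of all genes were called. The median log2 fold change of the members was 0.02, as it was for known mRNAs. Rsph1 was at 9.66 and 17.9 FPKM in control testes and at 7.86 and 18.2 in cadmium testes. Ift43, of IFT-A, had the largest change, -2.17 on the log2 scale with an SE of 1.33 (edgeR adjusted p = 1), at 1.43 and 3.54 FPKM in control and 0 and 0.97 in cadmium testes. It passed the filter through the control samples alone, so it had to be lower with cadmium. In sperm 15 members were tested and none was called by edgeR, with 1 at an unadjusted p under 0.05 (Cfap20, a doublet protein), where 0.0678% of all genes were called. Cfap20 was at 0 in all control pools and at 2.06 and 1.27 FPKM in cadmium sperm, 5 counts against 0 (edgeR adjusted p = 0.551). Cfap20 and Cfap157, which was at 2.1 and 3.4 FPKM in cadmium sperm, passed the filter through the cadmium samples alone. Both therefore had to be higher there, and both are among the 15 members of the median that follows. The median log2 fold change was 0.87 over the 15 members and 0.50 over known mRNAs. Depth was lower in control sperm than in cadmium sperm for every pair of libraries compared, and its part in this was not tested. For the interaction, the difference between the change in sperm and that in testes, 38 members were tested, with 0 called by edgeR and 0 at an unadjusted p under 0.05, where 0.0396% of all genes were called. For Tekt1 that difference was 3.54 with an SE of 3.18, and for Rsph6a it was -1.35 with an SE of 2.28. SEs of this size leave large differences undetected.

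**Figure D5:**
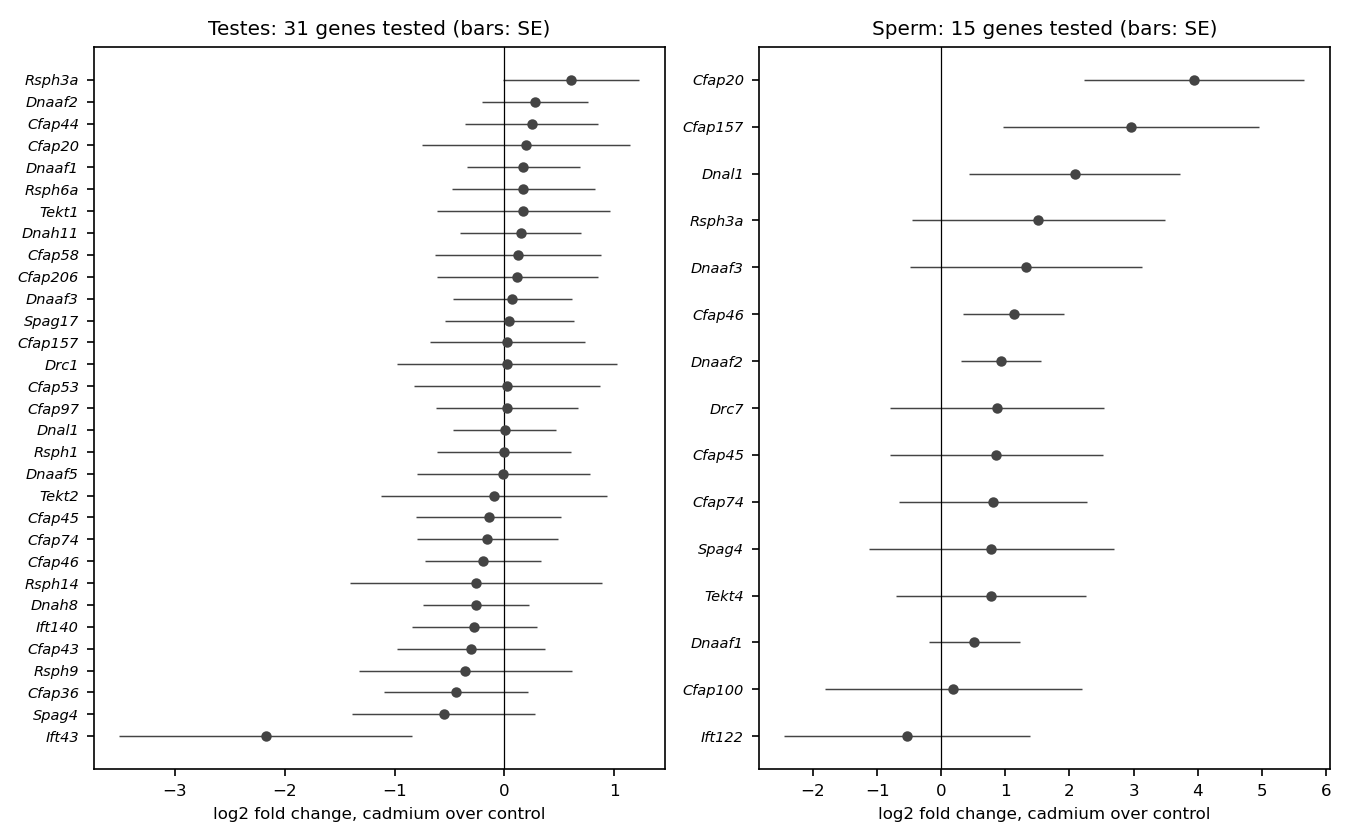
log2 fold change of cadmium over control, with SE bars, for the 31 members tested in testes and the 15 tested in sperm. Most testes values lie near 0, and 14 of the 15 sperm values lie above 0, those of Cfap20 and Cfap157 because of the filter.

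Many members followed the number of the testes sample, which was seen in the values and then counted. For 34 members, 43.0%, both testes samples numbered 2 were above both numbered 1, against 18.2% of known mRNA genes, and for 8 members, 10.1%, both numbered 1 were above both numbered 2, against 20.0%. Rsph1, Dnah11, Cfap43, Drc1 and Tekt1 to Tekt5 were among the 34. The tektin genes had few counts, and in control testes 3 of them had equal rounded counts in samples 1 and 2. Tekt1 had 7 and 7 there, Tekt2 4 and 4, and Tekt4 3 and 3. In cadmium testes samples 1 and 2 they had 6 and 9, 2 and 5, and 3 and 12. Drc1, of the nexin-dynein regulatory complex, was at 0.31 and 0.32 FPKM in the samples numbered 1 and at 1.90 and 1.82 in those numbered 2. Cfap74, a central pair protein, was at 9.95 and 8.25 in the former and at 2.07 and 2.04 in the latter. The labels do not say what a shared number stands for.

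A list of other axoneme and IFT genes lay outside the name rule. Of 82 genes on the list 67 were in the tables. In control mice 26 were tested, 1 was called higher and 11 lower in sperm. Zmynd10, another dynein assembly factor, was at 50.9, 74.6, 35.2 and 37.8 FPKM in the control sperm pools and at 3.87 and 2.92 in control testes, a log2 fold change of 3.72 with an SE of 1.03 (edgeR adjusted p = 0.00977). In cadmium mice it was at 107 and 45.4 in sperm and at 3.70 and 4.10 in testes (edgeR adjusted p = 6.19e-11). All sperm samples were above all testes samples. Among the 11 lower were Meig1, at 0 in all control pools and 8.46 and 45.7 in control testes, and the IFT-B genes Traf3ip1 and Ttc26. Another was the assembly factor Dyx1c1, at 0 in all control pools and at 1.8 and 2.92 FPKM in control testes. In cadmium mice 28 were tested, 5 called higher (Ccdc151, Ccdc63, Efcab6, Hydin and Zmynd10) and 13 lower. The assembly factors Dyx1c1 and Ccdc103 were among the 13. Cadmium against control gave 0 calls by edgeR in either tissue.

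Near-identical copies among the members, Dnah7a, Dnah7b and Dnah7c, Rsph3a and Rsph3b, and Spag6 and Spag6l, may share reads and their split is uncertain. The tables' Spag6 and Spag6l are Spag6l and Spag6 in RefSeq.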

How the data were processed

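RNA of 10 samples was sequenced strand-specifically after RNase H depletion of rRNA. The authors deposited, per transcript, an expected count and an FPKM value; their text names SOAPaligner/SOAP2, and the submitters' processing notes name HISAT and mm10. The counting tool, and whether it used strand, are not given in the sources used here. Here expected counts and FPKM were summed by gene, and counts were rounded. In the deposited cadmium files, 39 transcripts had a date in place of a gene name, restored from the control tables; no member was among them. edgeR 4.0.16 (R 4.3.3; TMM; quasi-likelihood test) was fitted to all genes that reached 1 FPKM in 2 or more of the samples compared, with Benjamini-Hochberg adjustment, a threshold of 0.05 and a fold above 2. Control sperm pool 1 was left out, as in the study. A script tested on simulated data preceded the fits. DESeq2 1.42.0, limma 3.58.1 on log2(FPKM + 1) and log2(FPKM + 0.1), other scalings and filters, single transcripts, all pools, a replicate block and leaving out each sample were alternatives. Genes named were the 2 highest in control testes of each role, the 2 highest in control sperm, up to 10 called in each direction of a comparison or, with fewer than 3 called, the 5 smallest p; others named, such as those of the testes numbers, were chosen after their values were seen. The members and lists were chosen with earlier results of these data known. All 79 members matched RefSeq (GRCm38.p6); promoters are RefSeq's, and 42 members overlap another gene.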

Additional observations from a re-analysis of the deposited data

Results flagged for a closer look

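Over the 4 control sperm pools, 40 of the 79 members had equal values (all 0), and 43 values (the other members and 4 sums over members or known mRNAs) were screened with Dixon's criterion for a pool that stands apart. The criterion was met by 25. For 21 of these only 1 pool was above 0, which meets the criterion by construction, so the usual rate of about 1 in 20 does not apply to them. In 19 that pool was pool 2, the deepest: Cfap157 was at 0.58 FPKM there, Cfap43 at 0.16, Cfap44 at 0.29, Cfap45 at 1.58, Cfap57 at 0.24, Dnaaf5 at 1.66, Dnah10 at 0.4, Dnah17 at 1.01, Dnah7c at 0.15 and Dnah8 at 0.32. Likewise Drc7 was at 1.01, Rsph6a at 1.21, Spag1 at 0.89, Spag16 at 0.26, Spag6l at 0.45, Spag7 at 0.86, Tekt2 at 1.29, Tekt4 at 1.26 and Tekt5 at 0.76. Cfap52 was above 0 in pool 1 alone, at 6.54 FPKM, and Ift122 in pool 4 alone, at 2.43. The remaining 4 had counts in several pools: Dnah1 stood apart at 1.91 and Dnah6 at 2.37 in pool 3, and Dnah2 at 2.06 and Spag9 at 3.84 in pool 1.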

How the results depend on the processing

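The number of members called in control sperm against testes was 9 (22% of all genes). It was 4 with no scaling beyond the total (11.2%) and 1 without a filter on low values (2.26%). With a filter at 5 FPKM it was 1 (6 members tested, 26.9% of all genes). It was 5 by DESeq2 (13.6%) and 15 by limma on log2(FPKM + 1) (29.2%). When a control sperm pool was left out it was 0 to 6 (4.23 to 18%). In cadmium mice it was 11 (31.7% of all genes), 2 with a filter at 5 FPKM (50.1%) and 6 by DESeq2 (19.7%). It was 7 there by limma on log2(FPKM + 1) (30.2%) and 5 on log2(FPKM + 0.1) (24.3%). For cadmium against control in sperm limma on log2(FPKM + 0.1) called 1, where 5.62% of all genes were called. The cause was not tested, except that fewer genes are tested under the stricter filter. With the replicate block and all 4 control sperm pools 0 members were called in control mice (5.61% of all genes). With the block 8 were called in cadmium mice (26.8%). The deviations of same-numbered samples correlated at 0.543 between the testes groups, a hint from the data with only 2 pairs. They correlated at -0.079 to 0.108 elsewhere, and the labels give no meaning to a number. In testes the block called 0 for cadmium. For cadmium in testes the sign of Rsph3a turned without testes cadmium 2 (-0.48 to 1.18 over the samples left out), that of Spag4 without testes control 2 (-1.29 to 0.71) and that of Dnaaf2 without testes control 1 (-0.066 to 0.73). Of the values of single genes under the alternatives, 50 of 109 in control mice and 39 of 116 in cadmium mice kept their direction but no longer passed. Members with under 10 counts limit what these libraries can show.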
